A study of Mus musculus with 24 samples.

Results

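The BCL2 family sets whether a cell dies through its mitochondria, and 10 of its genes were followed here across 4 groups of tumor-bearing mice. The 10 were Bcl2, Bcl2l1, Mcl1, Bcl2a1b, Bcl2a1d, Bak1, Bcl2l11, Bid, Bad and Bmf. They were taken by gene symbol from a table of 16996 genes, and all 10 had a row and a value in every one of the 24 libraries.

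RNA was sequenced from leukocytes that had been enriched with CD45 magnetic beads from EMT6-hHER2 tumors in wild-type Balb/c females of 10 to 12 weeks. EMT6-hHER2 is a mouse mammary carcinoma line that was made to express human HER2, and it had been grown out from a single sorted cell, so all tumors come from 1 clone. Treatment was given into a vein once tumors measured 80 mm3, untreated mice received nothing, and the cells were collected 10 days later. Each of the 4 groups held 6 libraries: mice left untreated, mice given the HER2 antibody trastuzumab at 20 mg/kg, mice given T-DM1 at 15 mg/kg, and mice given T-PNU at 1 mg/kg. T-DM1 is trastuzumab carrying a maytansinoid that poisons microtubules, and T-PNU is trastuzumab carrying a PNU anthracycline derivative that damages DNA. The dose of the 2 conjugates therefore differed as well as the payload. Per the paper's methods, T-PNU tumors were smaller at harvest than at treatment, and sizes of the other groups at harvest were not given separately. In the paper's growth experiments trastuzumab and T-DM1 did not stop tumor growth. A difference in tumor size at harvest cannot be told apart from T-PNU treatment. All groups shared the tumor line, the human HER2 transgene and the sorting step. The paper describes 4 of the T-PNU samples as high-responding and marks others as low-responding. The sample labels do not give the response, so the 6 T-PNU libraries were treated as 1 group.

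In this family, Bcl2, Bcl2l1 (BCL-XL), Mcl1 and the Bcl2a1 genes (A1) encode pro-survival proteins, which bind and hold back the other members. Bak1 encodes an effector that opens the outer mitochondrial membrane. Bcl2l11 (BIM), Bid, Bad and Bmf encode BH3-only proteins, which sense stress and either block the survival proteins or activate the effectors. Leukocytes differ in the guardian they lean on: mature lymphocytes are known for BCL2, myeloid cells and neutrophils for MCL1 and A1, and BIM is known for removing lymphocytes once their survival signals end.

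Values are deposited log2 values normalized for library size, so a difference of 1 is read as a doubling. The transformation is not named and may shrink the differences of low genes. Differences are given with their standard error, and a difference is called where the adjusted p of the limma fit over all genes was under 0.05.

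Among these members, Bcl2a1b and Bcl2a1d are near-identical copies, which limits what a read can say about either. Their coding sequences are both 516 bases and are 98.8% identical, differing at 6 positions. The first 90 coding bases of the 3 A1 genes that the annotation places near each other on chromosome 9 are shown because they hold 6 of the 12 coding positions at which at least 1 copy differs. Capitals mark these 6 (GRCm38, coding strand, 5′ to 3′).
Bcl2a1a (chr9:88957051-88957140, + strand): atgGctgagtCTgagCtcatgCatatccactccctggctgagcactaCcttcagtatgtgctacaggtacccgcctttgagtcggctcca
Bcl2a1b (chr9:89199360-89199449, + strand): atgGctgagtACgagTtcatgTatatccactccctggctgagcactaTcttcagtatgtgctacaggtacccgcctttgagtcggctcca
Bcl2a1d (chr9:88731630-88731719, - strand): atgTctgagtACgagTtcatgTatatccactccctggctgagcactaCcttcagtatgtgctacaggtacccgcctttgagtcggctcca
Of the 81-base windows in the annotated transcripts of Bcl2a1d, 65.8% (515 of 783) also occur in another annotated gene, most often Bcl2a1a. For Bcl2a1b the share is 65.7% (484 of 737), most often in Gm29094. The other 8 members share no such window with another gene. The values of the 2 A1 genes are therefore uncertain as values of separate genes, and each is given below beside the other.

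The 10 genes spanned a wide range of levels. Mcl1, the labile survival protein that many leukocytes need, had the highest log2 value, 15.20 on average over the 24 libraries (SD 0.17), and Bmf the lowest, 7.33 (SD 0.83). The median gene had a mean of 8.80. Corrected for exon length, for a rough comparison between genes, the log2 level per kilobase was 13.42 for Mcl1 and 10.72 for Bcl2a1b. Bak1 (10.62), Bcl2a1d (10.57) and Bcl2l11 (10.25) followed, then Bcl2l1 (9.56), Bid (9.36) and Bad (8.16). Bcl2 (6.40) and Bmf (4.93) were lowest per kilobase. Bmf was also the most variable, with a range of 2.60 over the 24 libraries, whereas Mcl1 spanned 0.64 and the median gene 0.87.

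**Figure D1:**
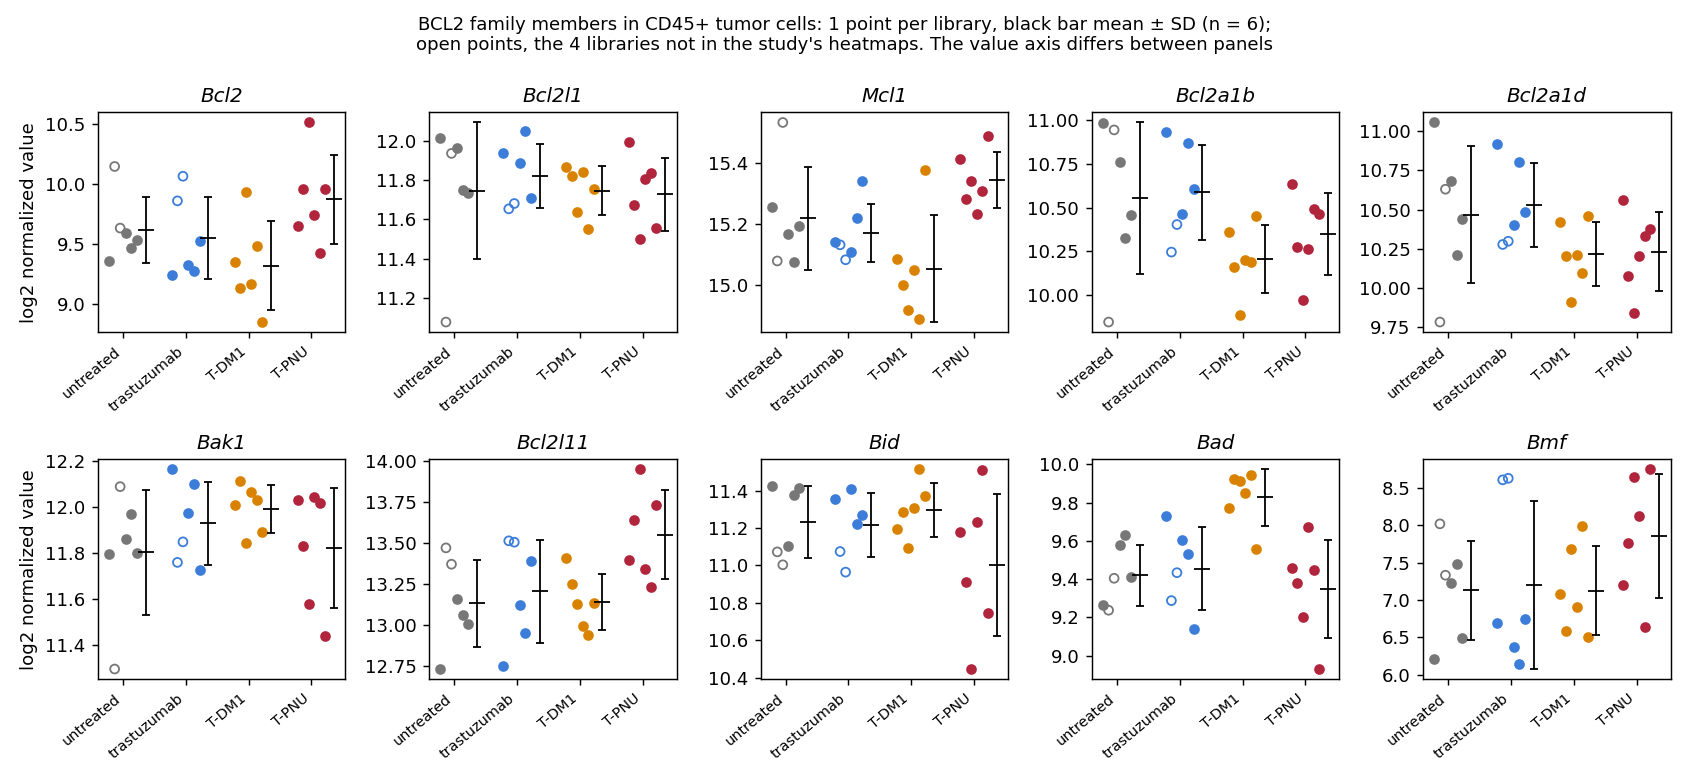
Log2 normalized value (vertical axis, its range differing between panels) of each of the 10 members in each library, by group, with the mean and SD of 6 libraries as black bars; open points are the 4 libraries that the study's heatmaps leave out. Bad is high in T-DM1, where 5 of 6 libraries sit above all untreated libraries, and Bmf spreads over 2.60 log2 units.

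The comparison of the 2 conjugates carried the most changes. Between T-PNU and T-DM1, 4 of the 10 members passed the test: Bcl2, Mcl1 and Bcl2l11 were higher under T-PNU and Bad was lower. Of all genes, 29.8% (5073 of 16996) passed in the same comparison, 12.4% as higher in T-PNU and 17.4% as lower, so 4 of 10 is near the background and says nothing particular about the family. In the 20 libraries of the study's heatmaps the same 4 members passed, where 39.9% of all genes did. The median difference over the members was 0.08, against 0.03 over all genes.

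Bad, whose protein frees the effectors by occupying BCL2 and BCL-XL, had the lowest adjusted p of the members in this comparison. Its log2 values in the 6 T-DM1 libraries ran from 9.56 to 9.94 with a median of 9.88. In T-PNU they ran from 8.93 to 9.67 (median 9.41), in trastuzumab from 9.14 to 9.73 (median 9.48) and in untreated from 9.24 to 9.63 (median 9.41). The T-DM1 values were high as a set, and 5 of the 6 T-PNU libraries lay below all of them. Bad was lower in T-PNU than in T-DM1 by 0.48 on the log2 scale (difference -0.48, SE 0.11, 95% interval -0.72 to -0.24, limma adjusted p = 0.0050, a 0.718-fold level). A two-sided exact permutation test of this pair of groups gave p = 0.0043 without adjustment. Leaving out each library in turn kept the call (adjusted p at most 0.017). At the study's stricter threshold, an adjusted p under 0.01 and a fold above 2, 0 of the 10 members passed between the conjugates, where 1.91% of all genes did. Against untreated mice Bad was higher under T-DM1 by 0.41 (SE 0.11, limma adjusted p = 0.036). Of all genes 6.27% (1065 of 16996) passed there, 4.11% as higher, and 1 of 10 members did. That second call was lost with an adjusted p up to 0.088 when any of 9 single libraries was left out, and in the 20 libraries, where the difference was 0.36 (adjusted p = 0.15) and 2.01% of all genes passed. In the 24 libraries Bad was also the 1 member with a called difference over the 4 groups together (limma F test adjusted p = 0.021, 51.0% of its variance between groups), where 18.8% of all genes passed. That call was lost without any 1 of D3, E3 and F3 (adjusted p up to 0.054). The same F test called 7 members in the 20 libraries, where 40.8% of all genes passed: Bcl2l11 (adjusted p = 0.010), Bad (0.018), Bcl2a1b (0.021), Bmf (0.031), Bcl2 (0.035), Mcl1 (0.035) and Bcl2a1d (0.045). In 5 of the 6 T-DM1 libraries genes rich in GC were high (correlation of each gene's deviation with its GC content 0.19 to 0.44 over 16930 genes, and -0.15 in the sixth), and Bad has 57.1% GC. With that trend removed from each library, the T-PNU to T-DM1 difference in Bad was -0.34 (adjusted p = 0.0081) and its difference between T-DM1 and untreated 0.22 (adjusted p = 0.19).

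Mcl1 had values from 15.23 to 15.49 in T-PNU (median 15.33) and from 14.89 to 15.38 in T-DM1 (median 15.02). In trastuzumab they ran from 15.08 to 15.34 (median 15.14) and in untreated from 15.08 to 15.53 (median 15.18). The T-PNU and T-DM1 groups overlapped only through T-DM1 library H3, at 15.38. Mcl1 was higher in T-PNU than in T-DM1 by 0.29 (SE 0.09, limma adjusted p = 0.017), and the call remained without any single library (adjusted p at most 0.048). The difference of T-PNU from untreated was 0.13 (adjusted p = 0.35) and that of T-DM1 -0.17 (adjusted p = 0.26), so neither group differed from untreated mice beyond the spread.

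Bcl2 had values from 9.42 to 10.51 in T-PNU (median 9.85) and from 8.85 to 9.94 in T-DM1 (median 9.26). In trastuzumab they ran from 9.25 to 10.07 (median 9.43) and in untreated from 9.36 to 10.15 (median 9.56). The highest value of all was T-PNU library C2 and the lowest T-DM1 library H3. Bcl2 was higher in T-PNU than in T-DM1 by 0.55 (SE 0.19, limma adjusted p = 0.030, a 1.47-fold level). This call was lost without any 1 of H1, B2, C2, D3, F3 and H3 (adjusted p up to 0.088, difference 0.42 to 0.54) and with the GC trend removed (0.49, adjusted p = 0.051). Against untreated mice the differences were 0.25 for T-PNU (adjusted p = 0.38) and -0.30 for T-DM1 (adjusted p = 0.35).

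Bcl2l11 had values from 13.23 to 13.95 in T-PNU (median 13.52) and from 12.94 to 13.41 in T-DM1 (median 13.13). In trastuzumab they ran from 12.75 to 13.51 (median 13.25) and in untreated from 12.73 to 13.47 (median 13.11). In T-PNU 3 of 6 libraries lay above every T-DM1 library, and the same number above every untreated library. Bcl2l11 was higher in T-PNU than in T-DM1 by 0.41 (SE 0.14, limma adjusted p = 0.037), a call lost without any 1 of 7 libraries (adjusted p up to 0.10) and with quantile normalization. With the GC trend removed the difference was 0.36 (adjusted p = 0.055). Over untreated mice the T-PNU difference was 0.42 (adjusted p = 0.099). It was 0.56 in the 20 libraries (SE 0.14, adjusted p = 0.0088) and the groups no longer overlapped, as in 15.9% of all genes.

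**Figure D2:**
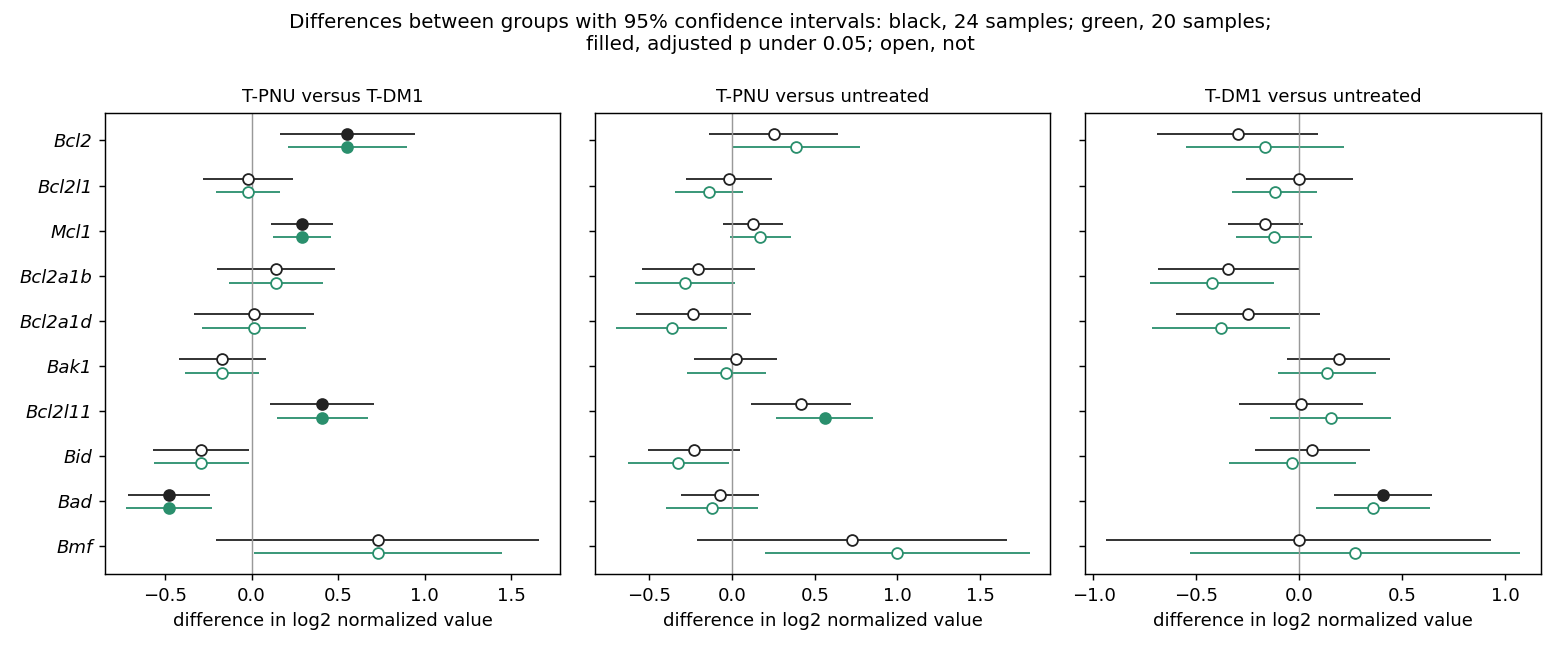
Differences in log2 normalized value (horizontal axis) for the 10 members in 3 comparisons, with 95% confidence intervals from the limma fit over all 24 libraries (black) or the 20 of the study's heatmaps (green); filled points passed the adjusted p of 0.05. Bcl2, Mcl1, Bcl2l11 and Bad are filled for T-PNU versus T-DM1 with both sets of libraries.

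The other 6 members gave no called difference between the conjugates. Bid, the BH3-only protein that caspase-8 cleaves to link death receptors to mitochondria, had values of 10.45 to 11.51 in T-PNU and 11.09 to 11.51 in T-DM1 (difference -0.29, SE 0.13, limma adjusted p = 0.098). Without T-PNU library G1, the highest of its group, the difference was -0.39 and passed (adjusted p = 0.020). Bak1 had values of 11.44 to 12.05 in T-PNU and 11.84 to 12.11 in T-DM1 (difference -0.17, 95% interval -0.42 to 0.08). Bcl2l1 had values of 11.50 to 12.00 and 11.55 to 11.87 (difference -0.02, interval -0.28 to 0.24). Bcl2a1b differed by 0.14 (interval -0.20 to 0.48) and Bcl2a1d by 0.01 (interval -0.33 to 0.36). Bmf, which binds survival proteins after loss of attachment and other stress, ran from 6.63 to 8.75 in T-PNU and from 6.51 to 7.99 in T-DM1 (difference 0.73, interval -0.21 to 1.66).

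T-PNU compared with untreated mice gave 0 called members in 24 libraries, where 0.188% of all genes passed by limma, and 1 member (Bcl2l11) had an unadjusted p under 0.05, as did 24.8% of all genes. Leaving out the 2 untreated and 2 trastuzumab libraries absent from the study's heatmaps raised the genes called from 32 to 5279 (31.1%), with Bcl2l11 the 1 member among them. Trastuzumab compared with untreated mice gave 0 called members (0 at an unadjusted p under 0.05), against 0.259% and 8.77% of all genes. The largest difference there was 0.13, in Bak1 (SE 0.12). In the T-PNU and trastuzumab comparison 0 members passed in 24 libraries, where 0.00588% of all genes did, and 1 had an unadjusted p under 0.05, as did 19.5% of all genes. In the 20 libraries 28% of all genes passed, and Bcl2 (0.53, adjusted p = 0.038), Bcl2l11 (0.50, adjusted p = 0.019) and Bmf (1.37, adjusted p = 0.018) were called as higher in T-PNU. The T cell markers moved in the same direction there: 7 of 8 were called as higher in T-PNU than in trastuzumab (median 1.20), as were 3 of 8 B cell markers (median 2.03), and 8 of 8 T cell markers were higher than in untreated mice (median 1.53). Their part in the members' differences was not tested. With trastuzumab libraries E2 and B3 alone left out, a fit chosen after seeing the data, the differences were the same size and 8.58% of all genes passed. Bcl2l11 (adjusted p = 0.049) and Bmf (adjusted p = 0.043) were called in it and Bcl2 was not (adjusted p = 0.068). In Bmf these 2 libraries stood at 8.63 and 8.61, the other 4 between 6.15 and 6.74. Their T cell marker levels (mean deviation of the list's genes) were 1.27 and 0.82, those of the other 4 between -1.30 and -0.24. Their B cell marker levels were 2.18 and 1.87, those of the other 4 between -1.89 and -0.41. The part of these levels in the calls without E2 and B3 was not tested. Between T-DM1 and trastuzumab 0 members passed, where 0.647% of all genes did, with 2 at an unadjusted p under 0.05 (Bad 0.37 and Bcl2a1b -0.38) against 15.3% of all genes. In the 24 libraries 0 members had groups that did not overlap in any of the 6 comparisons. Such genes made up 13.2% of all genes between T-PNU and T-DM1, 3.33% between T-DM1 and untreated and 1.01% between T-PNU and untreated. In the comparisons of trastuzumab with untreated, T-PNU and T-DM1 the shares were 0.541%, 1.31% and 2.5%.

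The A1 copies had lower means under T-DM1 than in untreated mice, and neither passed the test in the 24 libraries. Bcl2a1b ran from 9.84 to 10.99 in untreated mice and from 9.88 to 10.45 under T-DM1, a difference of -0.35 (SE 0.16, limma adjusted p = 0.21). Without untreated library B1, the lowest of its group, it was -0.49 and passed (adjusted p = 0.047). Bcl2a1d differed by -0.25 (SE 0.17, adjusted p = 0.39). Over the 24 libraries the 2 copies differed from each other by 0.06 on average (SD 0.09), and they correlated at r = 0.961 (Spearman rho 0.941, each with permutation p = 1e-05, the smallest that the resampling could give). The part that reads fitting both copies have in this likeness was not tested.

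Libraries of the same group differed widely in their lymphocyte markers, and most members moved with them. For T cell markers (8 of 10 genes measured) the list's mean deviation reached from -1.49 in untreated library A1 to 1.92 in T-PNU library C2. B cell markers (8 of 8 measured) reached from -2.26 to 2.18. None of these genes was near 0 in a library, the lowest value being 5.45. By group the T cell marker level ran from -1.49 to 1.57 in untreated and from -1.30 to 1.27 in trastuzumab. It ran from -1.43 to 0.90 in T-DM1 and from -0.53 to 1.92 in T-PNU. Within T-PNU it was -0.53 in G1 and -0.31 in A2, and between 0.78 and 1.92 in the rest. Between T-PNU and T-DM1 0 of the T cell marker genes were called (1 in the 20 libraries), although their median log2 difference was 0.83. In a bulk sample, more cells of a type and more RNA per cell cannot be told apart.

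Within groups, 8 of the 10 members followed the T cell marker level, where 54.7% of all genes did (27.8% rising, 26.9% falling). Bmf rose by 0.76 per log2 unit of the marker level (SE 0.09, limma adjusted p = 1.4e-07), Bcl2 by 0.33 (SE 0.03, adjusted p = 1.7e-08) and Bcl2l11 by 0.19 (SE 0.04, adjusted p = 6.0e-04). Bcl2a1d (-0.24), Bcl2a1b (-0.22), Bid (-0.17), Bcl2l1 (-0.17) and Bak1 (-0.12) fell by these amounts per unit. Mcl1 (-0.05) and Bad (-0.03) did not pass. The same 3 rose and the same 5 fell with the B cell marker level, where 47.4% of all genes passed (24.3% rising, 23.2% falling). Bmf followed it most closely, at 0.52 per unit (SE 0.03, adjusted p = 5.3e-11). T cell and B cell levels rise in the same libraries, so these 2 results are not separate. In the 20 libraries 6 members followed the T cell level and 3 the B cell level, where 40% and 26.4% of all genes did. Bcl2l11 (adjusted p = 0.055) and Bak1 (0.18) lost their T cell call there. Bcl2l11, Bcl2l1, Bcl2a1b, Bcl2a1d and Bak1 lost their B cell call there. In the 24 libraries Bak1 lost its B cell call without any 1 of B1, G1, H1, C2, G2 and B3. Its T cell call was lost without B1 (-0.08, adjusted p = 0.15).

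**Figure D3:**
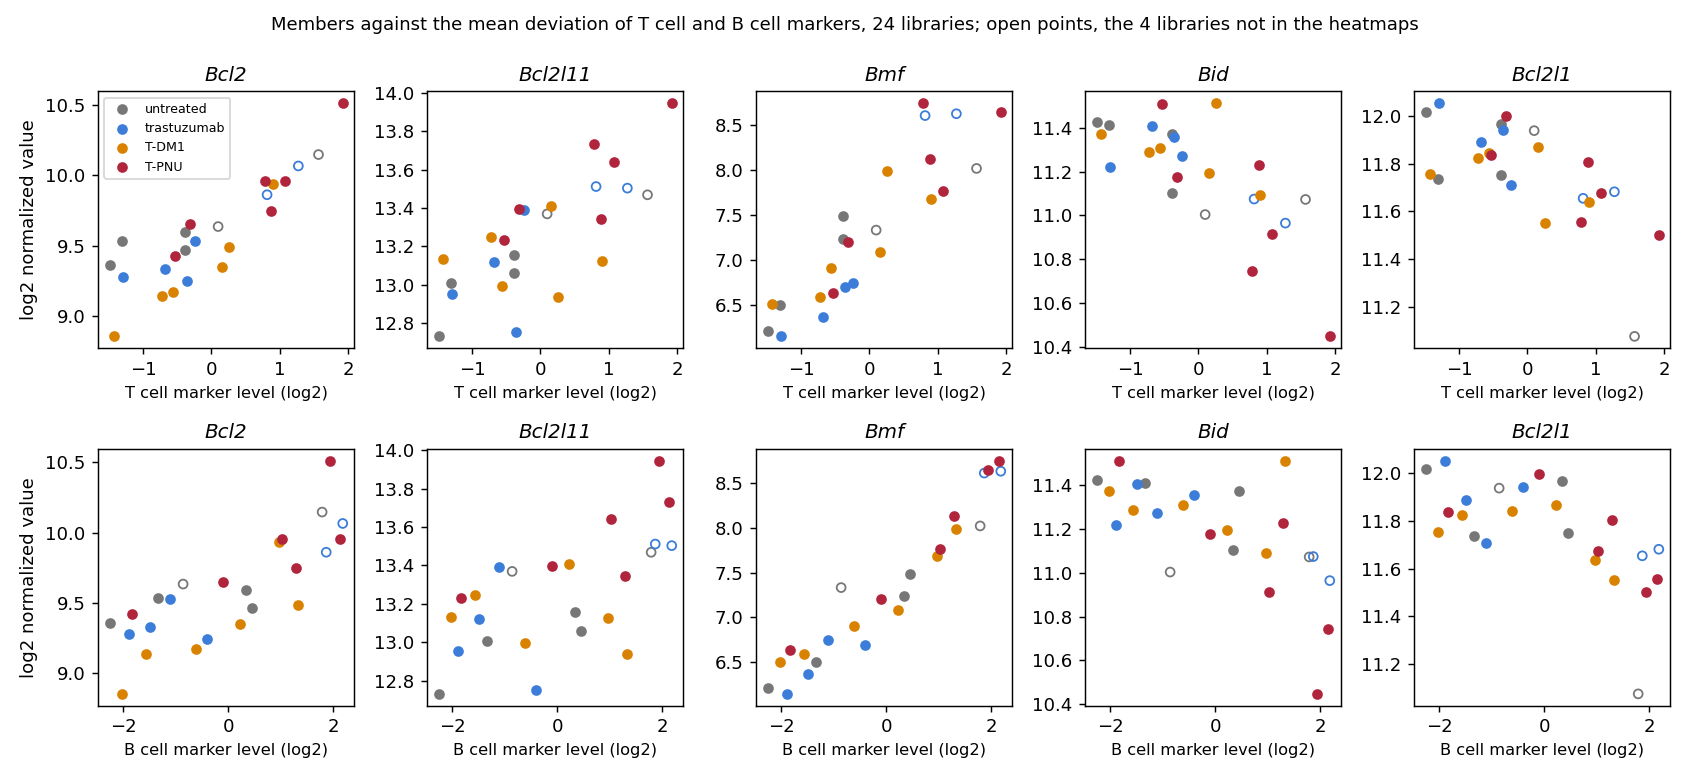
Log2 normalized value (vertical axis) of 5 members against the mean log2 deviation of T cell markers (top) or B cell markers (bottom) in 24 libraries colored by group; open points are libraries absent from the study's heatmaps. Bcl2, Bcl2l11 and Bmf climb with the lymphocyte markers, and Bid and Bcl2l1 decline.

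Because these marker levels moved with the members, the conjugate comparison was also fitted with the T cell marker level as a covariate, chosen after seeing the data. The Bcl2 difference was 0.27 (SE 0.09, limma adjusted p = 0.024) instead of 0.55. The Bcl2l11 difference was 0.24 (adjusted p = 0.11) instead of 0.41 and was not called. Mcl1 (0.34, adjusted p = 0.0084) and Bad (-0.45, adjusted p = 0.0085) stayed about as large. Bcl2a1b then passed, at 0.33 (adjusted p = 0.048). The share of all genes called in this fit of the conjugates is not given here. With the B cell marker level in its place, Bcl2 stood at 0.36 (adjusted p = 0.021), Bcl2l11 at 0.31 (adjusted p = 0.066), Mcl1 at 0.33 and Bad at -0.47. In T-DM1 against untreated mice, Bcl2 was lower by 0.33 with the T cell covariate (difference -0.33, limma adjusted p = 0.0088). That fit also called more of all genes than the fit without a covariate. With the B cell covariate the Bcl2 difference was -0.30 and not called (adjusted p = 0.067), nor was it called without a covariate.

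Myeloid marker levels were fitted in the same way, and apart from Mcl1 every member called had also been called with T cell markers. Members that rose with macrophage and monocyte markers, Mcl1 aside, had fallen with T cell markers. Members called with dendritic cell markers went in the direction they took with T cell markers. Mcl1 was the 1 member that rose with the neutrophil marker level, by 0.37 per unit (SE 0.07, limma adjusted p = 0.0015), where 11.2% of all genes passed, 8.27% as rising. Without untreated library C1 it was 0.36 (adjusted p = 0.051). Bcl2a1b (0.69), Bcl2a1d (0.60), Bcl2l1 (0.53), Bak1 (0.48) and Mcl1 (0.25) rose with the macrophage and monocyte marker level, where 25.9% of all genes passed, 13.5% as rising. These 5 calls were each lost without untreated library B1 alone, with slopes of 0.59, 0.46, 0.33, 0.40 and 0.33 in the same order. That of Mcl1 was also lost without any 1 of 9 other libraries (0.15 without C1) and with quantile normalization. In the 20 libraries, which lack the untreated libraries B1 and C1, the lowest and highest in that marker level (-0.98 and 0.77), 0 members passed, where 1.59% of all genes did, and the slope of Bcl2a1b was 0.83 (adjusted p = 0.10). The Mcl1 slope on neutrophil markers was 0.38 there (adjusted p = 0.078), where 1.28% of all genes passed. With the dendritic cell marker level Bmf (2.72), Bcl2 (0.85) and Bcl2l11 (0.71) rose and Bid (-0.51) and Bcl2l1 (-0.42) fell, against 43.9% of all genes (22.4% rising, 21.4% falling). The call of Bcl2l1 was lost in 14 of the 24 fits that left out 1 library. In the 20 libraries Bmf alone of the members passed there, where 9.67% of all genes did. The genes of the dendritic cell list did not move as 1 set. Ccr7 had the widest range among them (10.88 to 14.77). Between T-PNU and T-DM1 Fscn1 was lower (-1.13) while Xcr1 (1.19) and Clec9a (0.83) were higher. How far this level restates the lymphocyte levels was not tested.

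Members were also compared with each other, in 45 pairs over the 24 libraries. Members that follow the same marker level in the same libraries also go with or against each other. The pairs are therefore not separate from the marker results above, and the share over all pairs of genes is not given here. Bcl2 went with Bmf (r = 0.814, rho 0.810) and with Bcl2l11 (r = 0.734, rho 0.700). Bid went against Bcl2l11 (r = -0.831, rho -0.806) and against Bcl2 (r = -0.795, rho -0.729). Permutation p-values, adjusted over the 45 pairs, were at most 0.0011 for r and rho in these 4. Without the 2 libraries farthest from the median, r was 0.806, 0.688, -0.762 and -0.718, and within groups 0.824, 0.691, -0.793 and -0.757. Bcl2l1 went with Bak1 (r = 0.770, rho 0.617) and Bad with Bak1 (r = 0.720, rho 0.731), pairing a survival gene or a BH3-only gene with the effector. Without the 2 farthest libraries r was 0.552 and 0.652, and within groups 0.814 and 0.764. Bad had followed neither the T cell nor the B cell level.

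**Figure D4:**
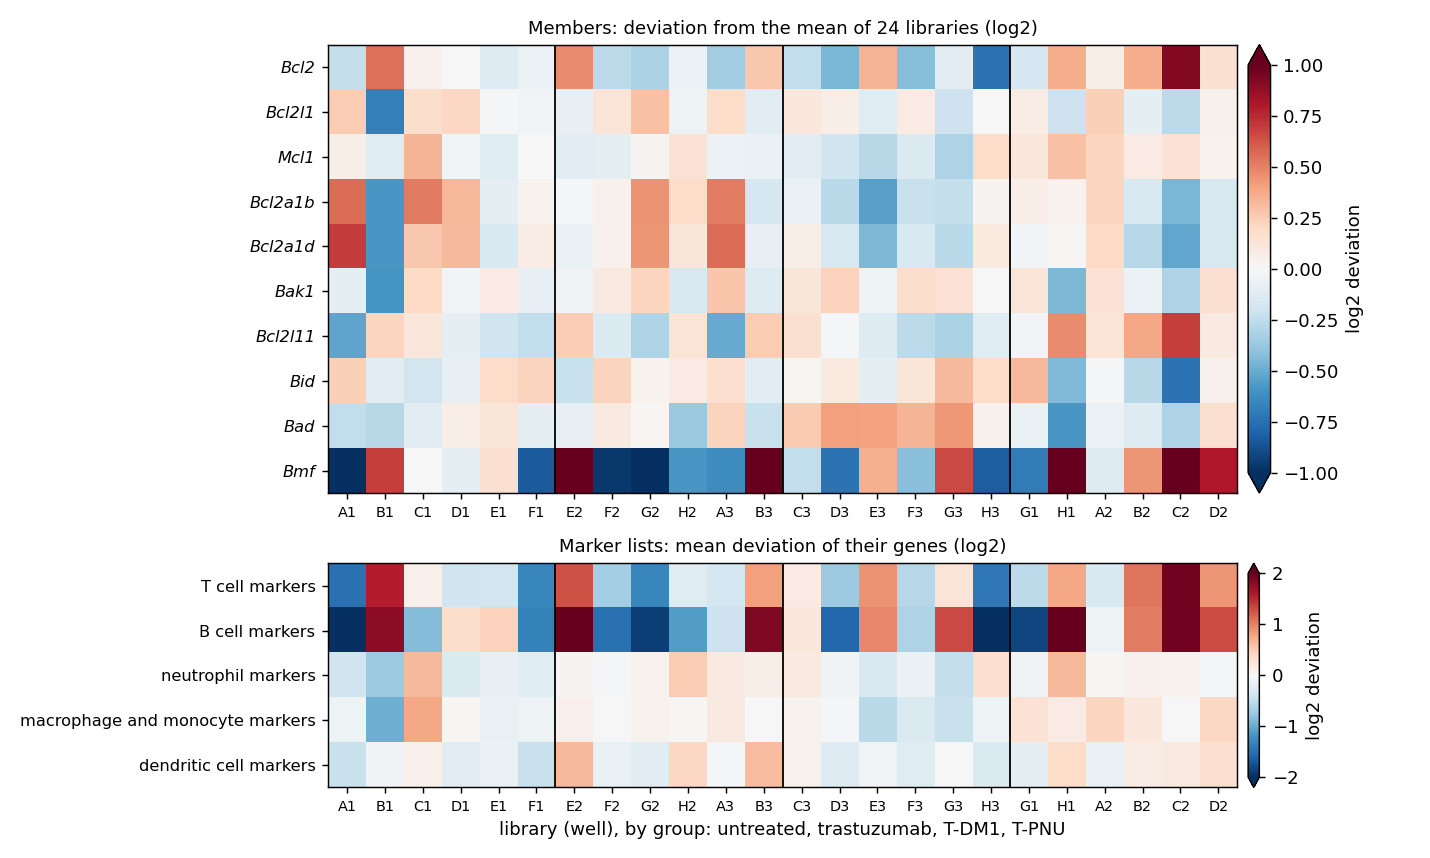
Deviation of each member from its mean over 24 libraries (top, log2) and mean deviation of 5 marker lists (bottom, log2), 1 column per library, by group; red is above and blue below the mean, and colors saturate at 1 in the top panel and 2 in the bottom panel. Bmf shares its red and blue columns with the B cell markers, and Bad is red in the T-DM1 columns.

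The genes whose pattern was most like a member over the 24 libraries were picked by Pearson's r among genes with a mean above the median. For Bmf they were the B cell genes Cd22 (r = 0.976), Cd79b (0.972) and Spib (0.967). For Bcl2a1d they were Bcl2a1a (0.983), Bcl2a1b (0.961) and Tnip3 (0.908), the first being the third A1 copy shown above. Bcl2 was closest to Smarca2 (0.959), Bcl2l11 to Zfyve26 (0.948), Mcl1 to Osbpl8 (0.941), Bcl2l1 to P2ry6 (0.935), Bak1 to Dpp3 (0.950), Bid to the proteasome gene Psma5 (0.966) and Bad to Cope (0.970).

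The promoters of the genes that moved together were searched for letters that known regulators bind. FOXO factors are known to drive Bcl2l11 when growth factor signals stop. In the 300 bases around the starts of the 10 members (RefSeq, GRCm38.p6, 16 promoters, both strands), GTAAACA occurred in 1, that of Bcl2l11, and in 3.65% of all 32851 promoters. The first 150 bases of that window are shown because they hold these letters, in capitals, from base -227 relative to the start.
Bcl2l11 (chr2:128125788-128125937, + strand): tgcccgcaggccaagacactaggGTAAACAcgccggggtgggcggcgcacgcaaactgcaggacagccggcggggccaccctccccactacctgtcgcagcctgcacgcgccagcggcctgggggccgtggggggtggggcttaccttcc
The promoters of Bcl2 and Bmf, which correlated with Bcl2l11, did not hold these letters in this window. TATAAA and CACGTG (the TATA and E-box letters) occurred in 0 of the 16 and in 13.6% and 7.15% of all promoters.

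Other genes of the pathway gave the members a setting. Of the 16 other BCL2 family genes listed, 14 had a row, and between T-PNU and T-DM1 2 were higher and 4 lower, with a median of -0.04 against 0.03 over all genes. Pmaip1 (NOXA), a BH3-only gene of the p53 response, was higher in T-PNU (0.60, SE 0.19, limma adjusted p = 0.021), as was Bcl2l14 (0.52, adjusted p = 0.018). Bok, an effector-like member, was lower (-1.05, SE 0.20, adjusted p = 0.0020), as were Bnip3 (-0.50) and the survival gene Bcl2l2 (-0.44). The calls of Pmaip1, Bnip3 and Bcl2l2 were lost in 3, 4 and 2 of the 12 fits that left out 1 library. Of 16 genes of the mitochondrial caspase pathway 4 were higher and 1 lower, with a median of -0.04, and in the 20 libraries 4 were higher and 3 lower. Against 12.4% and 17.4% of all genes in the 24 libraries, these counts say nothing particular about either list. Xiap (0.52), Birc2 (0.50) and Birc3 (0.37), of the inhibitor of apoptosis family, were among those higher. The executioner caspase Casp6 was lower (-0.44, limma adjusted p = 0.0045). Birc2 lost its call in 7 of the 12 fits without 1 library, with the GC trend removed (0.41, adjusted p = 0.084) and with the T cell covariate (0.24) or the B cell covariate (0.33). Of 10 death receptor genes 2 were higher, Ripk1 (0.27) and Casp8 (0.24), and 0 lower, against 4 higher and 1 lower in the 20 libraries. Casp8 was called in 1 of the 12 fits without 1 library, and neither with quantile normalization (0.21, adjusted p = 0.080) nor with the GC trend removed (0.18, adjusted p = 0.11). In T-DM1 against untreated mice Bcl2l12 was higher (0.41, adjusted p = 0.025) and Aifm1 lower (-0.18, adjusted p = 0.046), and 0 of the 10 death receptor genes passed. Both calls were lost in the 20 libraries (adjusted p = 0.093 and 0.084), with the compared groups alone (0.069 and 0.10) and with the GC trend removed, where Bcl2l12 stood at 0.25 and Aifm1 at -0.11. Aifm1 was called in 3 and Bcl2l12 in 8 of the 12 fits without 1 library.

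Markers of the labelled cell type were high, and those of non-immune cells ran from below the median gene to the top. Ptprc (CD45) averaged 14.69, above 99.1% of genes, and the macrophage genes C1qa, C1qb and Csf1r were at 14.78, 14.73 and 14.36. Of the other cells, Col1a2, a fibroblast collagen, averaged 15.16, Col1a1 13.13 and Krt8, a keratin of epithelial cells, 13.01, whereas the epithelial genes Epcam (7.40) and Krt19 (9.25) and the endothelial gene Cdh5 (8.59) stood at the 38.1, 54.9 and 47.9 percentiles of all genes. Between T-PNU and T-DM1 Ptprc was higher by 0.76 (limma adjusted p = 0.0057), while 4 of 9 non-immune genes were lower and 3 higher. In the same comparison 4 of 4 NK cell genes measured, 4 of 10 macrophage and monocyte genes and 1 of 8 neutrophil genes were higher, and 2 of 7 dendritic cell genes were higher and 1 lower. The mean deviation of the non-immune list ran from 0.07 to 0.39 in T-DM1 and from -0.69 to 0.21 in T-PNU. Their part in the differences of Bcl2, Mcl1, Bcl2l11 and Bad was not tested.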

How the data were processed

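Leukocytes from 24 tumors (6 per group) were sequenced as single 81-base reads. Per the labels and methods, the authors aligned reads to mm10 (STAR 2.4.2a), counted them per gene with strand (featureCounts, Subread 1.5.0), removed genes averaging under 5 counts and normalized with DESeq2. The deposited file holds log2 values normalized for library size, with the transformation not named, so the depth of a library cannot be read from it and count models were not used. Sample medians ran from 8.73 to 8.87. Column headings number the untreated libraries in a series apart from the treated ones. What these numbers stand for is not stated, and anything they mark cannot be told apart from treatment.

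All 24 libraries were fitted together in limma 3.58.1 (R 4.3.3; 4 groups, no covariate, eBayes with a trend), with Benjamini-Hochberg adjustment over all 16996 genes. A marker level is the mean deviation of a list's genes. Members and lists were chosen with earlier results of these data known. Named were all members, up to 3 called genes per direction of each list and comparison (otherwise the largest change), and the 3 genes most like each member. The labels give 6 mice per group without naming them, so p-values measure the spread between these libraries. The fit was tested on simulated data. Sequences are from GRCm38 (GENCODE and RefSeq).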

Additional observations from a re-analysis of the deposited data

Results flagged for a closer look

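Untreated library B1 stood apart from the other 5 untreated libraries in 3 of the 40 combinations of member and group that were examined, by a test of the gap to the nearest library that chance passes in about 1 in 20 groups. Bcl2 was high there, at a log2 value of 10.1473 where the others ran from 9.36 to 9.63. Bcl2l1 was low, at 11.0748. Bak1 was low, at 11.2949. The same library had the highest T cell marker level (1.57) and B cell marker level (1.79) and the lowest macrophage and monocyte marker level (-0.98) of the untreated group. Whether those levels bear on the 3 values was not tested.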

How the results depend on the processing

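The 4 differences between T-PNU and T-DM1 kept their direction under every alternative and every single library left out. Mcl1 and Bad also kept their call in all of these, although no member passed at an adjusted p under 0.01 with a fold above 2. Bcl2 lost it with the GC trend removed (0.49, adjusted p = 0.051) and Bcl2l11 with quantile normalization (0.37, adjusted p = 0.054), with the GC trend (0.36) or the exon length trend removed (0.35, adjusted p = 0.052) and with either marker level as a covariate. The higher Bad of T-DM1 over untreated was lost in the 20 libraries and with the GC trend removed. Library weights, which count variable libraries less, called Bcl2l11 higher in T-PNU than in untreated (0.42, adjusted p = 0.0093), Bcl2a1b lower in T-DM1 than in untreated (-0.38, adjusted p = 0.020), Bcl2a1b lower in T-DM1 than in trastuzumab (-0.41, adjusted p = 0.042) and Bad higher there (0.37, adjusted p = 0.024). They also called a difference over the 4 groups in Bcl2, Mcl1, Bcl2a1b, Bcl2a1d and Bcl2l11 beside Bad (adjusted p at most 0.043), and quantile normalization one in Mcl1 (adjusted p = 0.049). The GC, length, marker level and E2 and B3 alternatives were chosen after seeing the data. No paired analysis was possible because the labels carry no replicate numbers shared between groups. Depth is not known from log2 values, so what counting error allows for low genes such as Bmf could not be given, and the transformation may shrink their differences. Unless said otherwise the cause of a change was not tested; genes above the median and compared groups alone mean fewer genes or libraries tested. In what follows, a comparison or marker list stands in parentheses after its value.

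Genes called in the 20 libraries numbered 5279 (T-PNU versus untreated), 341 (T-DM1 versus untreated), 0 (trastuzumab versus untreated), 4765 (T-PNU versus trastuzumab), 6937 (any difference among the 4 groups), 4483 (B cell), 218 (neutrophil), 270 (macrophage and monocyte), 1643 (dendritic cell). With only trastuzumab E2 and B3 left out 1459 (T-PNU versus trastuzumab) genes were called. With quantile normalization 0 (T-PNU versus untreated), 0 (T-PNU versus trastuzumab) genes were called. Genes called among genes with a mean above the median numbered 90 (T-PNU versus untreated), 27 (trastuzumab versus untreated), 0 (T-PNU versus trastuzumab), 3003 (T-PNU versus T-DM1), 4 (T-DM1 versus trastuzumab), 1962 (any difference among the 4 groups). With a weight for each library 5827 (T-PNU versus untreated), 3297 (T-DM1 versus untreated), 195 (trastuzumab versus untreated), 2256 (T-PNU versus trastuzumab), 1232 (T-DM1 versus trastuzumab), 8652 (any difference among the 4 groups) genes were called. Genes called with only the compared groups fitted numbered 0 (T-PNU versus untreated), 621 (T-DM1 versus untreated), 0 (trastuzumab versus untreated), 0 (T-PNU versus trastuzumab), 424 (T-DM1 versus trastuzumab). At an adjusted p under 0.01 and a fold above 2, 0 (T-PNU versus untreated), 26 (T-DM1 versus untreated), 0 (trastuzumab versus untreated), 0 (T-PNU versus trastuzumab), 325 (T-PNU versus T-DM1), 12 (T-DM1 versus trastuzumab) genes were called. Genes called with the GC trend removed numbered 101 (T-PNU versus untreated), 338 (T-DM1 versus untreated). With the exon length trend removed 77 (T-PNU versus untreated) genes were called. Genes called with the T cell marker level as a covariate numbered 1 (T-PNU versus untreated), 3093 (T-DM1 versus untreated). With the B cell marker level as a covariate 2187 (T-DM1 versus untreated) genes were called.

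The members' values below turned sign and were called neither in the 24 libraries nor under the alternative. The sign turned in the 20 libraries for Bak1 -0.034 (T-PNU versus untreated), Bid -0.034 (T-DM1 versus untreated), Bmf 0.27 (T-DM1 versus untreated), Mcl1 0.028 (trastuzumab versus untreated), Bmf -0.37 (trastuzumab versus untreated), Bcl2l11 0.087 (T-DM1 versus trastuzumab), Bid -0.019 (T-DM1 versus trastuzumab), Bmf 0.64 (T-DM1 versus trastuzumab), Bad 0.022 (T cell), Bad 0.017 (B cell), Bcl2l1 -0.12 (neutrophil), Bak1 -0.38 (neutrophil), Bmf 0.27 (neutrophil). With quantile normalization, the sign turned for Bcl2l1 0.014 (T-DM1 versus untreated), Mcl1 0.088 (dendritic cell). The sign turned with a weight for each library for Bmf 0.087 (T-DM1 versus untreated), Bmf -0.12 (trastuzumab versus untreated), Bcl2l11 0.0030 (T-DM1 versus trastuzumab), Bmf 0.21 (T-DM1 versus trastuzumab). With the GC trend removed, the sign turned for Bak1 -0.026 (T-PNU versus untreated), Bcl2l1 0.082 (T-PNU versus T-DM1), Bcl2a1d -0.059 (T-PNU versus T-DM1). The sign turned with the T cell marker level as a covariate for Bcl2 -0.060 (T-PNU versus untreated), Bcl2l1 0.15 (T-PNU versus untreated), Bcl2a1b 0.0084 (T-PNU versus untreated), Bmf -0.0040 (T-PNU versus untreated), Bcl2l1 0.015 (T-DM1 versus untreated), Bcl2l11 -0.0077 (T-DM1 versus untreated), Bcl2l1 0.13 (T-PNU versus T-DM1). With the B cell marker level as a covariate, the sign turned for Bcl2l1 0.084 (T-PNU versus untreated), Bcl2l1 0.0025 (T-DM1 versus untreated), Bcl2l1 0.081 (T-PNU versus T-DM1). The sign turned without the group term for Bmf 0.16 (neutrophil), Bcl2l11 0.17 (macrophage and monocyte), Bid -0.10 (macrophage and monocyte), Bad -0.14 (macrophage and monocyte), Mcl1 0.070 (dendritic cell).

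Leaving out 1 library at a time gave 0 (without untreated A1) to 2929 (without untreated C1) genes (T-PNU versus untreated), 419 to 1626 genes (T-DM1 versus untreated), 0 to 97 genes (trastuzumab versus untreated), 0 to 6 genes (T-PNU versus trastuzumab), 3139 to 5760 genes (T-PNU versus T-DM1), 1437 to 4776 genes (any difference among the 4 groups), 32 to 161 genes (T-DM1 versus trastuzumab), 268 to 2091 genes (neutrophil), 1651 to 5423 genes (macrophage and monocyte). Signs turned without 1 library, with these ranges: Bcl2l1 -0.15 to 0.036 (T-PNU versus untreated), Bcl2l1 -0.13 to 0.054 (T-DM1 versus untreated), Bcl2l11 -0.072 to 0.076 (T-DM1 versus untreated), Bcl2l11 -0.0073 to 0.16 (trastuzumab versus untreated), Bid -0.062 to 0.034 (trastuzumab versus untreated), Bmf -0.22 to 0.28 (trastuzumab versus untreated), Bak1 -0.081 to 0.10 (T-PNU versus untreated), Bmf -0.19 to 0.17 (T-DM1 versus untreated), Bcl2 -0.17 to 0.035 (trastuzumab versus untreated), Bcl2l1 -0.060 to 0.13 (trastuzumab versus untreated), Bcl2a1b -0.11 to 0.12 (trastuzumab versus untreated), Bcl2a1d -0.073 to 0.18 (trastuzumab versus untreated), Bad -0.021 to 0.10 (trastuzumab versus untreated), Mcl1 -0.082 to 0.016 (trastuzumab versus untreated), Bcl2a1d -0.053 to 0.092 (T-PNU versus T-DM1), Bad -0.14 to 0.011 (T-PNU versus untreated), Bcl2l1 -0.072 to 0.027 (T-PNU versus T-DM1), Bmf -0.28 to 0.21 (T-DM1 versus trastuzumab), Bad -0.027 to 0.0026 (B cell), Bcl2l1 -0.025 to 0.30 (neutrophil), Bak1 -0.14 to 0.22 (neutrophil), Bmf -0.46 to 0.22 (neutrophil), Bcl2l11 -0.38 to 0.18 (macrophage and monocyte), Bid -0.011 to 0.35 (macrophage and monocyte), Mcl1 -0.10 to 0.038 (dendritic cell).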
